A study of Mus musculus with 2 samples.

Results

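Processed pseudogenes are copies of messenger RNAs that were reverse transcribed and inserted back into the genome, so they lack the introns of the gene they came from and usually its promoter. Genes with abundant messenger RNA in the germ line, above all those of ribosomal proteins and of the glycolytic enzyme Gapdh, have left many such copies in mammalian genomes. A young copy differs from its parent gene at few bases, and a short read from the parent then matches the copy as well. In the colon of adult mice, 138 of 5349 annotated processed pseudogenes had a summed expected count of at least 100 over both libraries, and these 138 are described here. An expected count is a read count in which a read that matches several genes is divided among them by estimation. The genes were chosen by that summed count, so their levels are given as a description, with no test.

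The samples were 2 libraries of 1 group, numbered biological replicates 1 and 2, of colon from C57BL/6J mice aged 8 weeks. Per the labels, littermates of both sexes were pooled, both libraries carry the same donor record, and polyadenylated RNA longer than 200 nt was read from both ends at 76 nt in a stranded protocol. No treatment or genotype is compared, so the design gives levels, their stated uncertainty, and the difference between the 2 libraries, whose spread may be partly technical. The gene tables held 46271167 and 45499561 expected counts on genes in replicates 1 and 2. Markers of colon epithelium (Cdx2, Car1, Lypd8, Slc26a3, Aqp8, Muc2 and Tff3) summed to 29092 and 31398 TPM (a transcript level scaled by length and by library), and all 7 were present in both libraries. The libraries stood apart in other markers. The 5 pancreatic acinar genes reached a joint 26.2 TPM in replicate 1 but 27841 in replicate 2, the 3 blood genes 368 and 2008, Xist 15.4 and 0.24, and the 4 Y-linked genes 0 and 11.8. The sex-linked values go against the label of pooled sexes in both libraries. With 2 libraries, the difference between them cannot be given without the one that holds the acinar and blood RNA, and the part of that RNA in the differences below was not tested.

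Most of the 138 copies were close in sequence to a protein-coding gene. A parent gene, the protein-coding gene with the best match over at least 50% of the copy at 80% identity or more, was found for 136 of them, and these matched 110 different parents. The median identity was 99.7%, and 30 copies were identical to the parent over their full length. The 4025 other processed pseudogenes with a parent had a median identity of 92.1%. Of all processed pseudogenes at 99% identity or more, 99 of 439 (22.6%) were among the 138. The share was 3.98% at 97 to 99% identity and 0.263% at 80 to 90%. By the parent's level it was 6.43% where the parent had 1000 TPM or more and 0.612% where it had under 10 TPM. The parents of all 136 copies have several exons, while 135 of the 138 copies have 1 exon. In place, 84 lie outside any other gene, 23 in an intron of a gene on the same strand, 19 in an intron of one on the opposite strand, 7 over an exon on the same strand and 5 over an exon on the opposite strand. The tables do not state whether counting used the strand, so reads of these hosts and of the copies may be mixed.

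Sequences of 4 families show differences that reads could be divided on, in windows of 76 bases, which is 1 read length. Fragments were read from both ends, so the other end of a fragment may hold further differences. Each line is 76 nt, 5′ to 3′ on the transcribed strand, from GENCODE vM21 transcripts on mm10, and capitals mark bases that differ from the parent gene. In each set the window is the stretch of coding sequence, without gaps, with the most differences summed over the copies compared. Its summed differences are therefore the upper end for the set, not the typical number. A single copy may differ at more bases in another stretch. The first set is from Rplp0, which encodes the P0 protein of the ribosomal stalk, and its 4 copies, all of which were higher in replicate 1. The Rplp0 window joins exons 5 and 6 (chr5:115561506-115562488, plus strand), and in the copies the same bases are contiguous. Gm8730 lies at chr8:102865085-102865160 (minus strand), Gm9625 at chr13:67810884-67810959 (plus), Gm14165 at chr2:152354251-152354326 (plus) and Rplp0-ps1 at chr3:93278779-93278854 (plus). In this window they differ from Rplp0 at 1, 3, 3 and 8 bases.
Rplp0: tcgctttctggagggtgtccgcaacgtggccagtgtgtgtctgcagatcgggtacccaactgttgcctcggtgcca
Gm8730: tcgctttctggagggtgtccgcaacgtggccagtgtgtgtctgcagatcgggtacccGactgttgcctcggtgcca
Gm9625: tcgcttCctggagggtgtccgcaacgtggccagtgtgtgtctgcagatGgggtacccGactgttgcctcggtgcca
Gm14165: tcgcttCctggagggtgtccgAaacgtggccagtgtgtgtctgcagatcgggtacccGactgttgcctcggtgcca
Rplp0-ps1: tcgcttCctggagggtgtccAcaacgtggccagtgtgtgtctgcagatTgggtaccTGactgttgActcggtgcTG

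The second set is from Gapdh, glyceraldehyde-3-phosphate dehydrogenase, and shows copies with no difference to divide reads on within the window. Gm10359 (chr5:105862946-105863021, minus strand) equals Gapdh (chr6:125162387-125162546, minus, exons 5 and 6) in this window, and Gm12671 and Gm7336 hold the same 76 bases. Gm14760 (chrX:80194096-80194171, minus) differs at 1 base.
Gapdh: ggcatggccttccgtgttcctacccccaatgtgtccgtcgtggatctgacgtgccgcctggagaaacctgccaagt
Gm10359: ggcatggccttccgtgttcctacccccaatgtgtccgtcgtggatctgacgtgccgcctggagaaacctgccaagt
Gm14760: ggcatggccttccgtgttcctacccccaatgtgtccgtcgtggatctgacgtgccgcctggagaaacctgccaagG

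The third set is from Rps2, a protein of the small ribosomal subunit, and shows less similar copies, which share almost no 76-base stretch with other genes. Rps2 is at chr17:24721295-24721690 (plus strand, exons 3 and 4), Gm14276 at chr2:156994268-156994343 (minus) and Gm17971 at chr1:55066887-55066962 (plus), with 12 and 10 differences.
Rps2: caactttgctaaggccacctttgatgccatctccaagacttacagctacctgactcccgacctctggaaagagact
Gm14276: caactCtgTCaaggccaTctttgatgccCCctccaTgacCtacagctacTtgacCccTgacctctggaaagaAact
Gm17971: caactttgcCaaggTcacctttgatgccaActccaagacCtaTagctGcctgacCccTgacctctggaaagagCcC

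The fourth set is from Eef1a1, the translation elongation factor that brings aminoacyl-tRNA to the ribosome, and holds 1 copy that differed between the libraries and 1 that was not called. Eef1a1 is at chr9:78478854-78479028 (minus strand, exons 7 and 8), Gm13456 at chr2:40556921-40556996 (plus) and Gm6548 at chr17:78850909-78850984 (minus), with 2 and 6 differences.
Eef1a1: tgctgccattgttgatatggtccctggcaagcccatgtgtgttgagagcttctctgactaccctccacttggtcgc
Gm13456: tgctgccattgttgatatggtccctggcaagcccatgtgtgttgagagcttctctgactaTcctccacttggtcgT
Gm6548: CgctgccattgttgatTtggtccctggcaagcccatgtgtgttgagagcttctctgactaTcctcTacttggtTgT

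The 138 copies held 0.337% of gene counts in replicate 1 and 0.310% in replicate 2, and 97.2% and 96.0% of the counts of all processed pseudogenes. A further 4357 processed pseudogenes were listed at 0 in both libraries and 854 had some counts but under 100. Summed counts ran from 104 to 39186 with a median of 382, and the 10 highest copies held 61.1% of the counts. By mean TPM, 137 copies reached 1, 82 reached 10 and 23 reached 100. Just inside the minimum were Gm9800 (32.3 and 74.0 counts, a copy of Ptma), Rps10-ps1 (40.9 and 64.1) and Rps19-ps6 (43.8 and 60.2). Just outside it were Gm15784, Gm12892 and Gm10250, with summed counts of 98.1, 96.5 and 95.5.

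Copies of cytosolic ribosomal protein genes formed the largest named class by parent. There were 47 of them from 33 parents, and they held 48.4% of the counts. The highest was Gm9843, a copy of Fau, which encodes a ubiquitin-like protein fused to ribosomal protein S30. It had 21367 and 17819 counts, or 1989 and 1624 TPM (1807 ± 258, SD, n = 2). Rpl14-ps1 had 569 and 372 TPM, Rps13-ps1 572 and 502, Rpl27-ps3 422 and 543, and Rpl15-ps3 236 and 203. These 5 were high in both libraries. Glycolysis gave 11 copies, 8 of them of Gapdh, with 16.1% of the counts. The actin copies Gm12715 (392 and 376 TPM) and Gm8399 (2.69 and 5.38), both from Actg1, held 8.76%. Oxidative phosphorylation gave 6 copies, among them Ndufb4c, from a subunit of complex I, at 418 and 387 TPM. The RefSeq annotation lists 2 of the copies, Ndufb4c and AA414768, as protein-coding genes. Translation factors and RNA-binding proteins gave 4 each, chaperones 3, chromatin proteins 3, the proteasome 1 (Gm13835, from Psma3), and 55 had other parents. Among those others, Gm9791 from Carhsp1 had 407 and 322 TPM, Gm7367 from Ubald2 398 and 407, and Gm12481 from Serf2 511 and 557. No parent was found for Gm17084, which overlaps an exon of Ripk1, or for Gm16574, which lies in an intron of Airn.

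Fractional counts were nearly general among the copies. In 130 of 138 (94.2%) the expected count lay further than 0.01 from a whole number in at least 1 library, that is, reads had been divided with another gene. Among 13343 protein-coding genes with the same minimum the share was 12.9%. Within the middle range of the copies' summed counts (171.7 to 1058) it was 95.6% of copies and 8.73% of coding genes. The 8 with whole counts in both libraries were AA414768 (216 and 160), Gm16011 (68 and 175), Rplp0-ps1 (200 and 0), Gm14276 (70 and 96), Marcksl1-ps4 (83 and 67), Gm11400 (59 and 78), Gm16574 (69 and 65) and Gm17971 (58 and 70). Sharing was computed on GENCODE vM21 sequences, while 45 copies were counted with another length. The median copy shared 82.2% of its 76-base stretches with transcripts of other genes, and 39 copies shared all of them. At the other end, AA414768, Gm14276 and Gm16574 shared 0%, Gm16011 0.116% and Gm11400 0.351%. Those 5 all had whole counts. Their levels were low, from 1.37 ± 0.856 TPM for Gm16011 to 4.92 ± 1.02 for AA414768 (n = 2). The Rps2 copies Gm14276 and Gm17971, whose sequences are printed above, reached 4.44 ± 0.962 and 2.93 ± 0.382 TPM, against 2974 and 3095 TPM for Rps2 itself. Marcksl1-ps4 is an exception to this order, with whole counts although all of its 76-base stretches occur elsewhere. It lies over an exon of Akr1c19 on the same strand.

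The deposited TPM intervals, whose level is not stated, were wider for the copies than for coding genes. The width divided by the posterior mean TPM had a median of 0.448 and 0.417 in replicates 1 and 2, against 0.161 and 0.163 for coding genes with the same minimum. Within the middle range of the copies' counts the medians were 0.450 for copies and 0.323 for coding genes. Spearman's rho across the 138 copies was -0.63 with the summed count and 0.014 with the share of 76-base stretches found elsewhere, as a description, since the copies come from the same 2 libraries and many share sequence. Count and sharing were not separated in these values: the median summed count was 648 for fully shared copies, 415 at 50 to 100% and 187 below 50%, with median widths of 0.448, 0.452 and 0.466. The lower bound was below 0.005 TPM in 1 library for 10 copies and in both for none. The deposited TPM lay outside its own interval for 5 copies in replicate 1 and 3 in replicate 2 (3.62% and 2.17%), against 2.45% and 2.10% of coding genes. Gm10163, from Rpl21, was one, at 28.6 TPM with an interval of 0.017 to 19.6 in replicate 1.

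**Figure D1:**
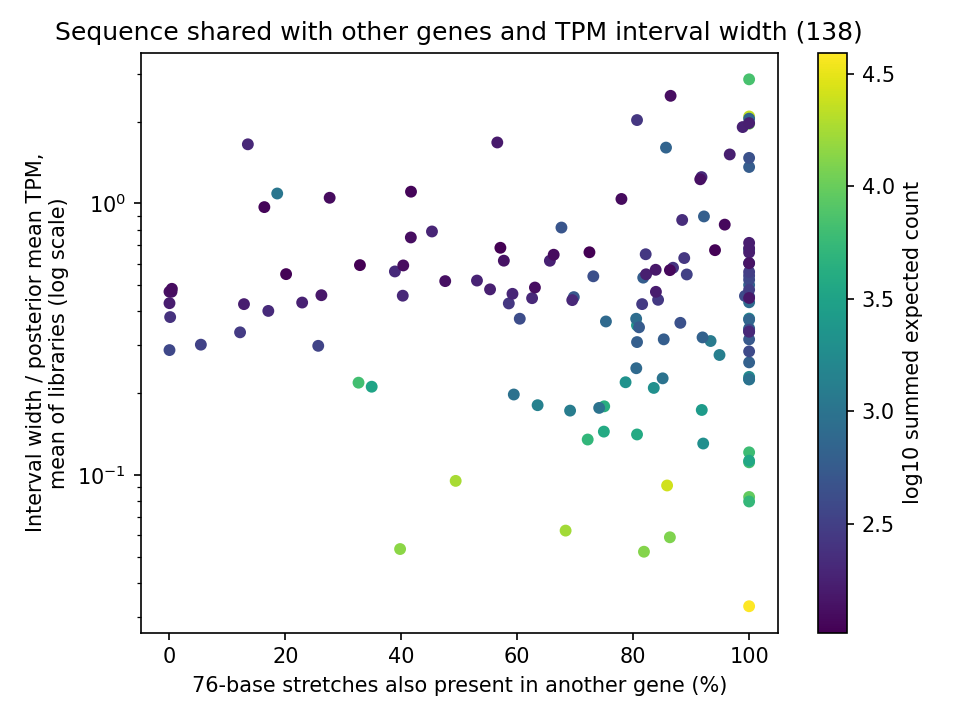
Each of the 138 points is 1 processed pseudogene. The x axis is the percent of its 76-base stretches found in another gene, the y axis (log scale) the TPM interval width over the posterior mean TPM, averaged over the libraries, and colour is the log10 summed count. Points of high count mostly lie low (Spearman's rho of width with summed count -0.63). The widest intervals, however, include those of the Gapdh copies Gm10359, Gm12671 and Gm7336, which have high counts and share every stretch.

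The 3 highest Gapdh copies had wide intervals despite high counts. Gm10359 had 9319 and 12665 counts, Gm12671 5855 and 4645, and Gm7336 2337 and 4645. Over 1002 aligned bases these 3 copies do not differ from each other. Gm7336 was counted at 1002 nt but is 1232 nt long in vM21, where it has 1 mismatch and 2 gap positions against Gapdh. The deposited posterior mean counts divide the reads otherwise, with 6346 and 8476 for Gm10359, 6302 and 8807 for Gm12671 and 4842 and 4576 for Gm7336. The mean TPM then moves from 380 to 254 for Gm10359 and from 181 to 259 for Gm12671, and the lower level of Gm7336 in replicate 1, for which it was called, is gone. The intervals overlapped too. In replicate 1 that of Gm10359 ran from 10.1 to 486 TPM, that of Gm12671 from 42.7 to 511 and that of Gm7336 from 4.47 to 394. Summed, they had 17512 and 21955 counts, a log2 ratio of -0.36 (replicate 1 over replicate 2), while Gapdh itself had 96361 and 89287 counts. The other 5 Gapdh copies had summed counts below those of each of these 3, and Gm14760, with its 1 differing base in the window above, had 441 and 170.

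**Figure D2:**
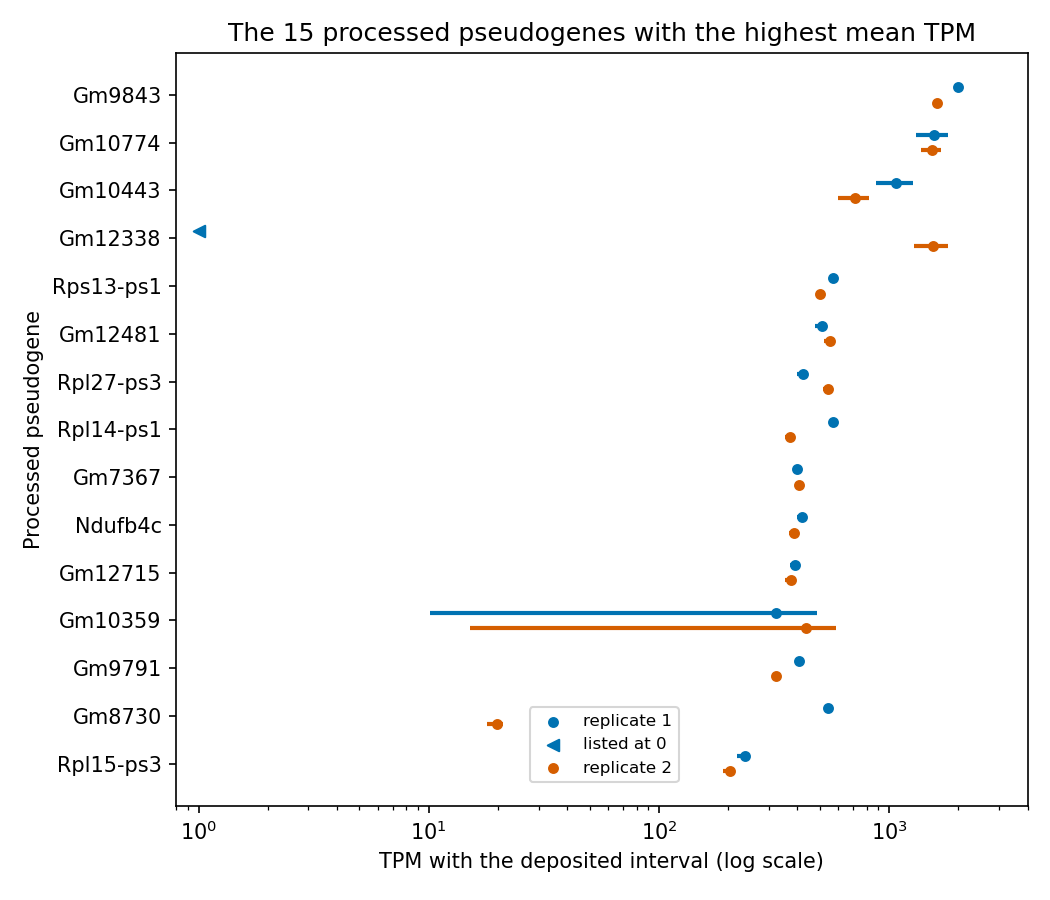
TPM (log scale) of the 15 processed pseudogenes with the highest mean TPM, with a point for each library and a line for its deposited interval. The intervals of Gm10359 reach down to 10.1 and 15.1 TPM, Gm8730 is apart between libraries (545 and 19.7), and Gm12338 is listed at 0 in replicate 1.

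Between the libraries, 44 of the 138 copies (31.9%) differed by at least 2-fold at an adjusted p of at most 0.05 in the exact binomial test, with 13 higher in replicate 1 and 31 higher in replicate 2. Over all genes that pass the same minimum of 100 the share was 2.94% (1.2% and 1.74% in these directions), and over all 17713 genes tested it was 6.35%. These genes were not matched to the copies by summed count. The binomial test sees counting error alone and compares 2 libraries, not conditions. The 44 include the 6 copies listed at 0 in 1 library and others with few counts in 1 library. These reached the minimum of 100 through the other library's counts, and the shares were not computed without them. The edgeR exact test, with a biological coefficient of variation of 0.271 estimated over all genes, called 19 copies (7 and 12) against 1.01% of genes with that minimum and 1.35% of all tested. The median absolute log2 ratio was 0.56 for the copies and 0.19 for all genes with that minimum. Over the 135 copies whose parent was tested, the copies had a median absolute log2 ratio of 0.56 and their parents 0.19. For 23 of the 44 called copies the parent had the opposite sign, and for 1 the parent, Rpl39, was called itself. When the counts of each copy and its parent were added, 2 copies were called, 1 of them among the 44. That 1, Rpl39-ps, changed sign, from a log2 ratio of 3.43 to -1.09. Such a sum mostly follows the parent, whose counts usually outweigh the copy's, so the drop does not test the copies. By the share of 76-base stretches found elsewhere, 11 of 39 fully shared copies, 22 of 69 copies with 50 to 100% and 11 of 30 below 50% were called. Deposited TPM intervals of the 2 libraries were apart for 63 copies (45.7%), with replicate 1 above in 30 and below in 33. That is near the 42% over all genes with the minimum (24.8% and 17.2%), and 35 copies were both called and apart.

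**Figure D3:**
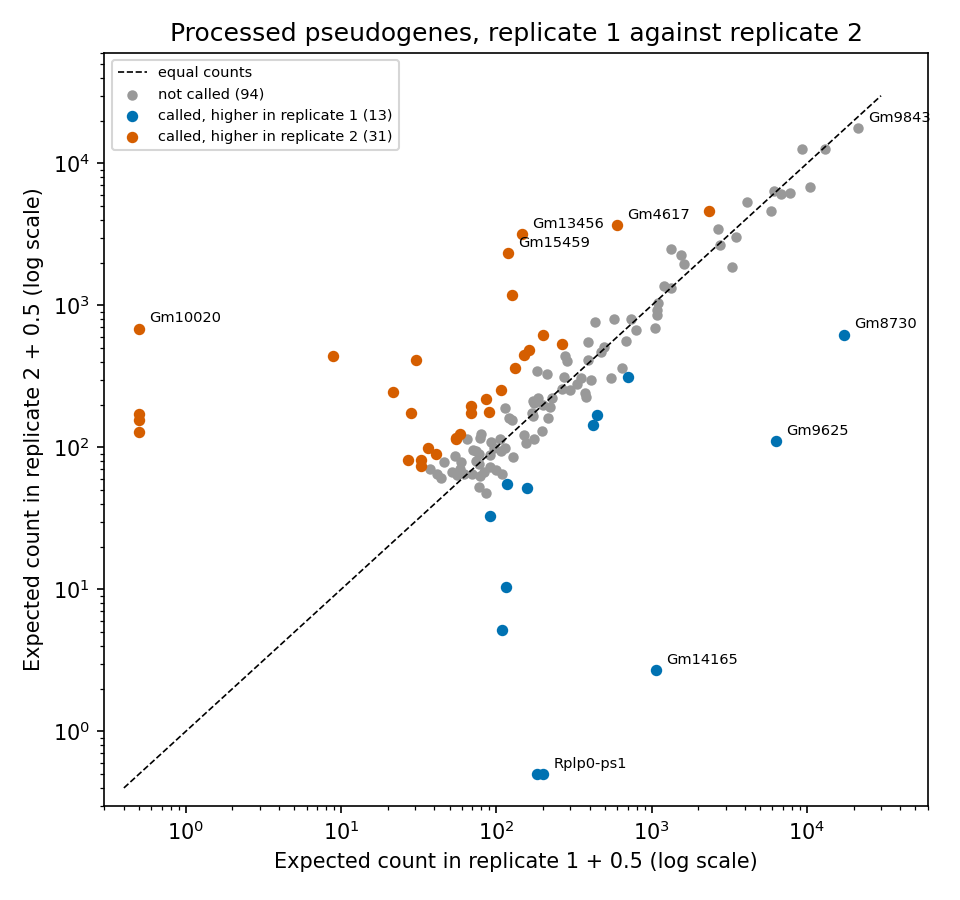
Expected count + 0.5 in replicate 1 (x) and replicate 2 (y), both on log scales, for the 138 processed pseudogenes. The dashed line marks equal counts, and colours mark the 13 copies called higher in replicate 1 and the 31 called higher in replicate 2, with points at the left and lower edges listed at 0 in a library.

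All 4 copies of Rplp0 were higher in replicate 1. Gm8730 had 17240 counts in replicate 1 and 622 in replicate 2 (log2 ratio 4.76), and Gm9625 had 6338 and 110 (log2 ratio 5.81). Their adjusted p-values were too small for the computation to represent. Gm14165 had 1068 and 2.21 counts. Rplp0-ps1, with whole counts, had 200 and 0, at least 65.3-fold higher in replicate 1 with 3 counts set for the library at 0. It is 1 of 6 copies listed at 0 in a library, which entered the 138 through the other library alone. Others with few counts in 1 library, such as Gm14165, Gm12191 (8.43 and 440) and Gm7278 (108 and 4.66), also reached the minimum by 1 library's counts. The edgeR exact test also called all 4 Rplp0 copies, but it used the same counts and is not separate evidence. Together the copies held 20.9% of the counts of Rplp0 and its copies in replicate 1 and 0.648% in replicate 2. Rplp0 itself had 93844 and 112536 counts, and the family as a whole had a log2 ratio of 0.04. Of their 76-base stretches, 49.4% in Gm8730, 32.6% in Gm9625, 18.6% in Gm14165 and 13.5% in Rplp0-ps1 occur in other genes. The interval of Gm8730 ran from 531 to 548 TPM in replicate 1 and from 18.01 to 21.1 in replicate 2.

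**Figure D4:**
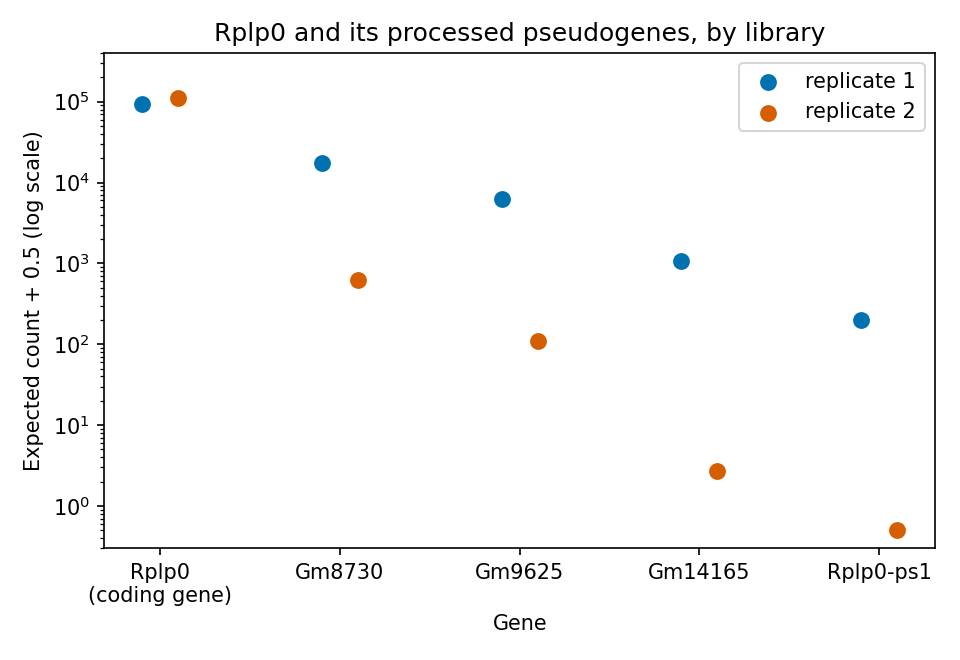
Expected count + 0.5 (log scale) of Rplp0 and its 4 processed pseudogenes, with 1 point for each library. Rplp0 is slightly lower in replicate 1 (93844 against 112536), and every copy is higher there.

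Other copies were higher in replicate 2, which also held the acinar and blood RNA. Gm13456, from Eef1a1, had 145 and 3189 counts (log2 ratio -4.48), while Gm6548, from the same parent, had 171 and 167. Eef1a1 had 89721 and 120914. Gm15459, from the chaperone gene Hspa8, had 119 and 2341 (log2 ratio -4.33), and Gm8355, also from Hspa8, had 96.0 and 97.9. Within each of these families 1 copy was called and the other was not. Gm4617, from the prothymosin gene Ptma, had 599 and 3695 counts (log2 ratio -2.65), Rpl3-ps1 126 and 1190, Gm10093 from the histone deacetylase gene Hdac1 29.9 and 412, and Gm12191 from Rpl30 8.43 and 439.6. The edgeR exact test, on the same counts, called Gm13456, Gm15459, Gm4617, Rpl3-ps1, Gm10093 and Gm12191 too. Of their 76-base stretches, 34.9% in Gm13456, 73.1% in Gm10093, 75% in Gm4617 and 80.7% in Gm15459 occur in other genes. The share was 94.9% for Rpl3-ps1 and 100% for Gm12191. Gm12191 lies in an intron of Cnot6 on the same strand, and Gm15459 over an exon of Gm26825 on the opposite strand.

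A count of 0 in 1 library did not always mean separate levels. Gm10020, from Rpl15, had 0 and 687 counts, at least 234-fold higher in replicate 2, and its TPM intervals were apart, with an upper bound of 0.242 in replicate 1 and a lower bound of 41.4 in replicate 2. Gm4294, from the same parent, had 181 and 0 counts. With Rpl15-ps3 included, the copies held 35.0% and 35.4% of the Rpl15 family in replicates 1 and 2, so the family share was level while single copies were not. Gm6969, from Cox7a2l, had 0 and 155 counts. For Rpl7a-ps11 (0 and 173) the intervals overlapped, from near 0 to 9.81 TPM in replicate 1 and from 1.59 to 19.0 in replicate 2, and its posterior mean counts were 97.3 and 214. Gm15710 from Rpl13 (0 and 129) behaved likewise, with upper bounds of 34.4 and 49.5 TPM, and its posterior mean counts were 182 and 380, which takes its log2 ratio from -8.04 to -1.09. The bounds on these folds cover counting error and not the division of reads. Higher in replicate 1 were also Gm7278 from Odc1 (108 and 4.66 counts), Rbx1-ps (158 and 51.5) and Rpl39-ps (114 and 9.96), the last against 309 and 870 for Rpl39. Rbx1-ps was not called by the edgeR exact test (adjusted p = 0.474).

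The list of 79 cytosolic ribosomal protein genes, from which many copies come, was measured in full. None was called higher in replicate 1 and 6 were called higher in replicate 2, among them Rpl14 and Rps27, against 2.55% and 3.81% of all tested genes (1.2% and 1.74% at the minimum of 100), with a median log2 ratio of -0.36. The median over all tested genes was -0.0041. The edgeR exact test called 1 of the 79. Rpl14 had 2760 and 5591 counts, and Rps27 47.8 and 312. The copy Rpl14-ps1 went the other way from Rpl14, with 10390 and 6837 counts. Rpl14 and this copy together had a log2 ratio of 0.051, so that family was level between the libraries. Rpl39, also called, stayed lower in replicate 1 with its copy added, at a log2 ratio of -1.09. The part of read division in the call of Rpl14 was not tested. Of the 79 genes, 65 had fractional counts and 33 were parents of the copies. Of the 47 copies from this list, 6 were called higher in replicate 1 and 12 higher in replicate 2.

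Most copies were listed well below their parent gene. The median ratio of mean TPM, copy over parent, was 0.0586, and 23 copies were above their parent, 20 of them in both libraries, but only 14 by counts. Gm9843 stood at 2.45 times Fau (574 and 899 TPM), and its vM21 sequence has 0 differences from Fau, although the tables list it as 504 nt, longer than in vM21. Mrpl23-ps1, from a mitochondrial ribosomal protein gene, had 80.7 and 62.7 TPM, 10.2 times Mrpl23. Rpl27-ps3 stood at 8.30 times Rpl27, Gm10146 at 6.98 times Lsm7 and Ndufb4c at 5.29 times Ndufb4. The vM21 sequences of Rpl27-ps3, Gm10146 and Ndufb4c are found whole, in 76-base stretches, in other genes. Rpl27-ps3 and Gm10146 were counted at 475 and 448 nt, against 411 and 309 nt in vM21, and their further bases were not compared. The highest ratio, 98.6, was that of Gm10774 over Polr2l, a subunit shared by the RNA polymerases. Gm10774 is 204 nt long and its effective length, the number of start positions a fragment can have, was listed as 2.84 and 8.72, so 163 and 485 counts became 1565 and 1545 TPM. By counts Polr2l was higher, with 788 and 866. Gm10774 also lies over an exon of Usp50 on the same strand. Gm10443 from Rps28 (1075 and 714 TPM) had effective lengths of 5.36 and 12.9. Gm12338 from Cox7c had 27.6 counts in replicate 1 with an effective length of 0 and a TPM listed at 0, and 174 counts and 1558 TPM in replicate 2. AA414768 had the closest match to E330021D16Rik, which was listed at 0 in both libraries.

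**Figure D5:**
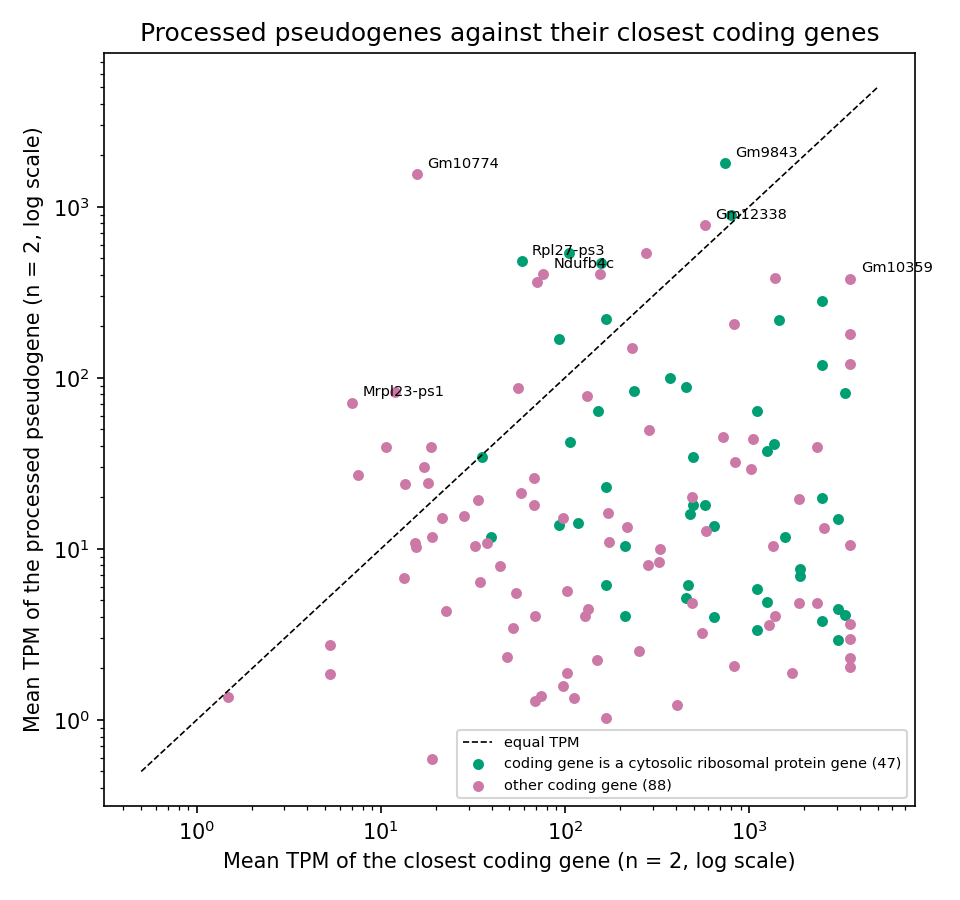
Mean TPM (n = 2, log scales) of the parent gene (x) and the processed pseudogene (y) for the 135 copies whose parent was above 0, with ribosomal protein parents in green. Points above the dashed line, such as Gm10774 (1555 against 15.8 TPM) and Gm9843 (1807 against 737), are copies listed above their parent.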

How the data were processed

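Levels came from the gene tables of both libraries. The expected counts, TPM and FPKM, with interval bounds kept as a score, are as deposited by the authors, on mm10 with the M4 annotation per the deposited file notes. Aligner, quantifier, strand use in counting and interval level were not given in the sources used here. GENCODE vM21 gave symbols, biotypes and sequences by identifier without version (42462 of 43346 genes matched), and the length of 45 copies differs between it and the tables. The genes and lists were chosen with earlier results of these data known.

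Counts were rounded and compared by a two-sided exact binomial test on library sizes scaled by TMM (edgeR 4.0.16, R 4.3.3), adjusted by Benjamini-Hochberg over the 17713 genes whose counts summed to 10 or more. Calls needed an adjusted p no higher than 0.05 and a log2 ratio (0.5 added to counts) of 1 or more in size. Above a sum of 2000 the doubled exact tail was used. Tested on counts simulated with counting error alone, it recovered 200 of 200 genes changed 4-fold and called 3 unchanged genes. Parents came from blastn 2.17.0 on transcripts. The named genes were the 15 highest by TPM, the 10 by count, the 8 most different each way, the 5 highest over their parent, the 5 with least shared sequence and 3 on each side of the minimum. Others were chosen after their values were seen. Floors and binomial p-values cover counting error only.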

Additional observations from a re-analysis of the deposited data

How the results depend on the processing

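Of the counts reported, those of copies with reads, fractional counts, TPM intervals apart, copies above their parent and copies at 1 TPM stayed within 1.5 times under every alternative run for them. Without replicate 1 or replicate 2 (for copies with reads at a minimum of 50 in the library left) they ranged from 126 to 142 copies with reads, from 122 to 125 with fractional counts, from 22 to 25 above their parent and from 129 to 132 at 1 TPM. The 44 copies differing between the libraries became 19 by the edgeR exact test, all among the 44. When copy and parent were added, 2 copies were called, 1 of them among the 44 but with the opposite sign. The other alternatives gave 42 to 44. The 6 ribosomal protein genes became 1 by edgeR. Copies with a lower bound under 0.005 TPM in either library numbered 10, but 0 in both libraries, and 3 to 7 without replicate 1 or 2. By symbol alone 35 copies had a parent, against 136 by sequence. The median share of shared stretches was 89.3% for 50 bases, 76.6% for 100 bases and 83.7% on either strand. With the parent added, the log2 ratio reversed for Rpl39-ps (-1.09), Gm9800 (0.34), Rbx1-ps (-0.032), Gm8730 (-0.057), Gm7278 (-0.055), Gm14165 (-0.28), Gm12338 (0.62), Rplp0-ps1 (-0.29) and Gm9625 (-0.20), by construction, since the parent's counts outweigh the copy's. Of 20 named copies called, 16 stayed called by edgeR and Gm10774, Gm16011, Gm9800 and Rbx1-ps did not. No paired analysis was possible because there is 1 group. The difference between libraries and the comparison of intervals cannot be given without a library. Depth limits the copies near 100 counts most.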
